A study of Mus musculus with 10 samples.

Results

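The genes of transport between the endoplasmic reticulum (ER) and the Golgi apparatus were examined in 5 cell populations of the mouse hair follicle and its dermis. Members were chosen by symbol alone: all genes of the array whose symbol begins with Sec and a number from the translocon, signal peptidase, COPII coat or Sec22 series (Sec14 genes left out), the Cop coat genes, the Tmed genes, Arf1 to Arf6 and the Trappc genes. The rule found 52 genes of the 12393 named on the array. By role these were 10 genes of the COPII coat and its regulators, 8 of the COPI coat, 6 Arf GTPases, 9 p24 proteins (Tmed), 10 TRAPP subunits, 7 genes of the translocon and signal peptidase, and 2 Sec22 SNAREs. Sec61g and Tmed2 were read only by probe-sets that the platform annotation assigns to several genes, and were not counted.

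Proteins bound for the cell surface enter the ER through the Sec61 translocon, and signal peptidase cuts off their leader. Cargo leaves the ER in COPII vesicles, whose inner coat is made of Sec23 and Sec24 and whose outer coat is made of Sec13 and Sec31. Cargo and escaped ER proteins return from the Golgi in COPI vesicles, made of coatomer that the GTPase Arf1 and its relatives bring to the membrane. The p24 proteins are cargo receptors of both coats, and the TRAPP complexes tether vesicles to their target. Fibroblasts make heavy use of this route, since procollagen is folded in the ER and is too long for an ordinary vesicle.

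All cells came from the dermis of backskins of mice at postnatal day 4 (P4) that carried the transgenes K14-H2BGFP, a nuclear green reporter under a keratin promoter of skin epithelium, and Lef1-RFP, a red reporter under a fragment of the human Lef1 promoter. By flow cytometry the study sorted matrix (Mx, GFP-low and RFP-negative), outer root sheath (ORS, GFP-high and RFP-negative), dermal fraction (DF, negative for both), dermal papilla (DP, RFP-high and GFP-negative) and melanocytes (Mc, RFP-high and CD117-positive). Before the sort of DF and DP, cells with CD117, CD45 or CD34 were depleted, and the methods give 5 backskins for the preparation. Each population has 2 arrays, 10 in all, that the methods describe as independent datasets. Values are linear signals of Affymetrix probe-sets, a gene counts as expressed in a population if both of its arrays gave 200 or more, and differences come from limma on log2(signal + 50). On that scale the fold of a gene with a low signal is understated. Pooled cells of a gate are measured together, so fewer cells of a type and less RNA per cell cannot be told apart.

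The median signal of an array ran from 79.4 to 90.9 in DF and DP and from 49.9 to 70.5 elsewhere, so it moves with the dermal comparison. All 17 members called in that comparison kept their call after quantile normalization. Mx replicate 1 had the lowest median, the fewest probe-sets at 200 (5018, against up to 6650) and the highest ratio of 3' to 5' actin signal (2.09). The summed markers of each population were highest on its own arrays. That of DF rests on Col3a1 and Ccdc80, since Dcn read 1326 and 1914 in DF against 4725 and 3052 in Mx, and Lum and Pdgfra were higher in DP (Lum 328 and 307 against 148 and 158, Pdgfra 1450.5 and 1633 against 609.8 and 658). DF also carried pericyte and smooth muscle markers, with 6 of 7 expressed and a summed signal from 20655 to 23546. DP expressed 5 of these 7 (sum from 3895 to 6428) and ORS 3 (sum from 4051 to 5382). Endothelial markers had 3 of 7 expressed in DF and a sum there from 2773 to 3823. Red cell markers summed to between 3655 and 4528 in DF, with 1 of 3 expressed (Alas2), and to between 61.4 and 76.5 in DP. Schwann cell markers summed to between 2348 and 3035 in DF and between 1401 and 1944 in DP, with 3 of 4 expressed in each. Their sum was highest in Mc, between 3699 and 4012, with 3 expressed as well. Melanocyte markers summed to between 15305 and 25058 in DP, with 6 of 8 expressed, to between 3970.5 and 13019 in DF, and to between 32244 and 34497 in Mc. No immune marker was expressed in any population.

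Of the 52 members, 43 were expressed in at least 1 population and entered the fit, and 9 were expressed in none (Sec16b, Sec22a, Sec61a2, Tmed6, Tmed8, Tmed11, Trappc5, Trappc12 and Trappc13). On all 10 arrays, 28 members reached 200, and 26 of these (92.9%) stayed within a 2-fold difference in all pairs of populations. The same held for 69.3% of the 2156 genes of the array that reached 200 throughout. The remaining pair, Tmed10 and Arf6, spanned 2.78-fold and 2.12-fold, Tmed10 by the 1 probe-set that names it alone. The other tested members were expressed in 1 to 4 populations, and such genes pass the filter through the population where they are high. Over the 43 tested members the median range from the lowest to the highest population was 1.57-fold, against 2.02-fold over all 5253 tested genes. DF was the highest population for 16 of the 43 (37.2%, against 20.8% of all tested genes). Mx was the lowest for 17 (39.5%), near its share of 34.0% over all tested genes. Under 2-fold is a statement of size alone, and 8 of the 26 even members passed the test between dermal and other cells given next. Evenness was counted on 1 probe-set a gene. Among the even members a second probe-set spanned 2.26-fold for Arf4 and 2.21-fold for Copg1. An evenness of ER and Golgi genes had been seen in these data before the members were chosen, so these counts are a description.

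**Figure D1:**
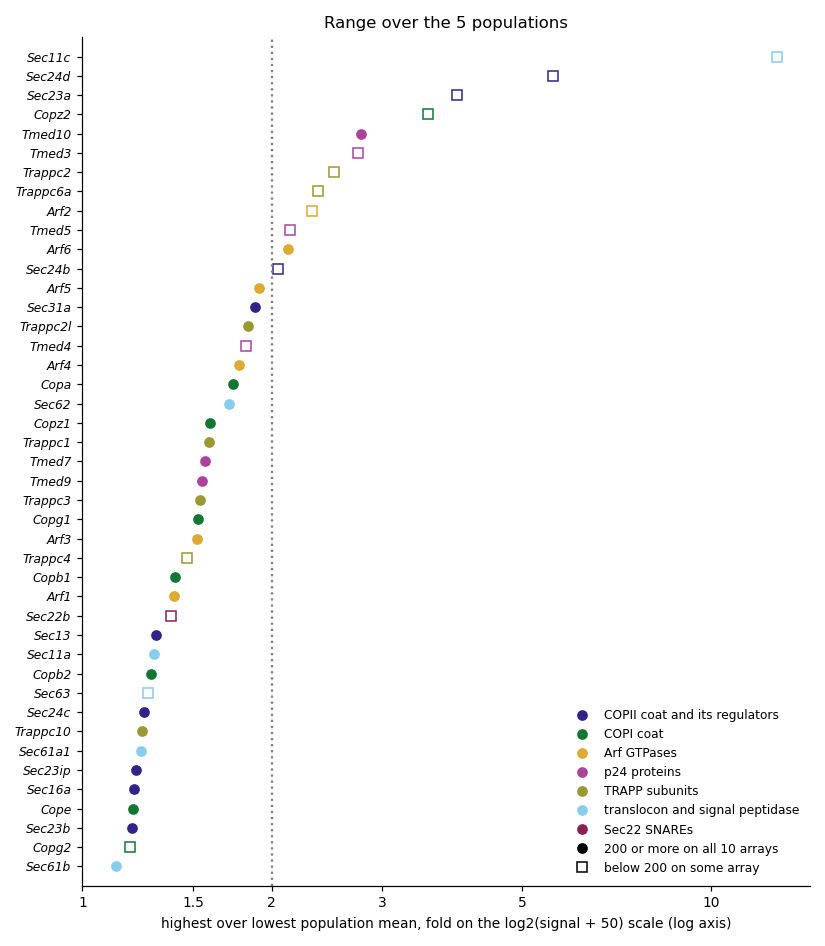
Range of each of the 43 tested members over the 5 populations, as the highest over the lowest population mean of log2(signal + 50), on a log axis in fold; filled circles reached 200 on all 10 arrays and open squares did not, colours give the role, and the dotted line marks 2-fold. Sec61b lies lowest at 1.13-fold, and Sec11c, Sec24d, Sec23a and Copz2 lie highest, from 12.7-fold down to 3.54-fold.

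Of the 28 members at 200 on all arrays, the 6 of smallest range are given here, with Arf1 as an example of its role. Copg2, below 200 on some arrays, spanned 1.19-fold. Sec61b, the beta subunit of the translocon, read between 929.9 and 1308 on the 10 arrays and spanned 1.13-fold between populations. Sec23b, one of the pair of Sec23 genes, read between 426 and 582 and spanned 1.2-fold. Cope, the epsilon subunit of coatomer, spanned 1.2-fold, Sec16a, the scaffold of ER exit sites, 1.21-fold, and Sec23ip, a Sec23-binding protein of those sites, 1.22-fold. Sec61a1, the channel-forming subunit, read between 966 and 1456 and spanned 1.24-fold, and Arf1 read between 1984 and 2970.0 and spanned 1.4-fold. Replicates of these genes were at most 0.92 apart on the log2 scale, the largest gap being that of Sec16a in Mx (342 and 692). In the comparison of DF and DP with the other 3 populations none of these 7 passed the test, and the 95% intervals of their folds all lay between 0.76 and 1.41. The interval was 0.76 to 1.08 for Sec23b, 0.777 to 1.17 for Sec61a1 and 0.889 to 1.24 for Arf1. Other tested probe-sets of Sec61a1 spanned from 1.22-fold to 1.5-fold. The widest did not pass in this comparison (adjusted p = 0.176 from limma). It was higher in DF alone than in Mx, ORS and Mc (1.34-fold, adjusted p = 0.043 from limma).

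A difference somewhere among the 5 populations was found for 21 of the 43 tested members (48.8%), where the background over all tested genes was 70.2%. Between the matrix-secreting dermal cells (DF and DP together) and the mean of Mx, ORS and Mc, 11 members were higher, against a background of 31.0%, and 6 were lower, against 21.3%. The median log2 difference was 0.11 over the members and 0.07 over all genes. Together these are 17 of 43, 39.5% against a background of 52.4%. By role, 3 of 9 COPII genes rose and none was lower, and 4 of 8 COPI genes rose and 1 was lower. Of 6 Arf genes 2 went each way, and of 6 p24 genes 1 went each way. Of 7 TRAPP genes 1 was lower, and of 6 translocon and signal peptidase genes 1 rose and 1 was lower. Among the raised genes Sec24d, Sec23a, Copz2 and Arf2 passed the signal filter through dermal cells alone. Each role holds few tested genes. A difference between roles was not tested. The 4 dermal arrays lay wholly above the 6 others for 7 members (Sec24d, Sec23a, Copz2, Arf2, Copb1, Copg1 and Sec62) and for 13.2% of all tested genes, and wholly below them for 1 member (Trappc6a) and 4.0% of genes.

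**Figure D2:**
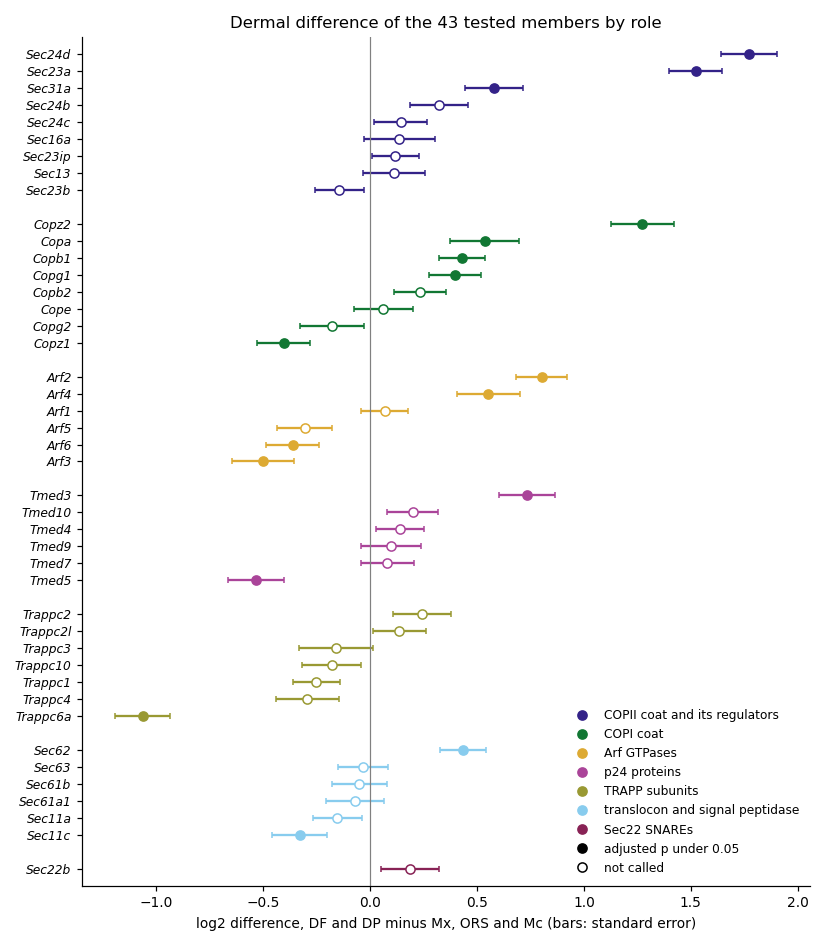
Log2 difference between DF and DP (mean of both) and Mx, ORS and Mc (mean of the 3) for each of the 43 tested members, grouped by role, with bars of 1 standard error from limma; filled points have an adjusted p under 0.05. Sec24d (1.77), Sec23a (1.52) and Copz2 (1.27) lie farthest to the right and Trappc6a (-1.06) farthest to the left.

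Sec24d was the most strongly dermal member. It is one of the Sec24 genes, which select cargo for the COPII vesicle, and its loss in fish and humans disturbs collagen secretion and the skeleton. It read 543 and 505 in DF and 252 and 335 in DP. In the other populations it read 137 and 88.2 (ORS), 83.5 and 79.5 (Mc), and 47.7 and 57.5 (Mx). All 4 dermal arrays were above 200 and all others below it. The dermal mean was 3.42-fold higher (log2 difference 1.77, SE 0.13, adjusted p = 1.58e-07 from limma, 95% interval 2.81 to 4.16-fold).

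Sec23a, which encodes the GTPase-activating subunit of the inner coat and whose loss in humans gives a skeletal and skull disorder, followed the same pattern. Its signal was 725 and 519 in DF and 349.9 and 379.5 in DP. It stayed between 117 and 154 on the 6 other arrays, so that the groups did not overlap. The difference was 2.87-fold (log2 1.52, SE 0.12, adjusted p = 4.01e-07, 95% interval 2.39 to 3.46-fold).

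Copz2, a zeta subunit of coatomer, was the third. It read 342 and 293 in DF, 222 and 217 in DP, and at most 154.6 elsewhere, with 37.2 in Mx replicate 2 as its lowest value. The difference was 2.42-fold (log2 1.27, SE 0.15, adjusted p = 1.33e-05). Sec24d, Sec23a and Copz2 were expressed in DF and DP only, and passed the signal filter through these populations alone, so for them a difference was to be found once they were tested. The same was true of Arf2, expressed at 200 in DF alone.

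The promoters of the members are shown for 1 motif, because Sec24d and Sec23a, the most dermal members, both carry it. TGACGTGG is the core of the element bound by ER stress and CREB3 family factors. In RefSeq windows of 300 bases (250 before to 50 after the start, build GRCm38.p6, both strands searched), 45 members had a window and 6 of them held the motif. Of the 27025 genes with a window 0.714% held it. The 6 include Sec24d and Sec23a, for which the motif was chosen, so the shares are a description and no enrichment was tested. The sequences run 5' to 3' on the strand of the gene with the motif, or its reverse complement CCACGTCA, in capitals. For Sec24d the 250 bases before the start are given (chr3:123267246-123267495, plus strand) and for the others 30 bases around the match.
Sec24d: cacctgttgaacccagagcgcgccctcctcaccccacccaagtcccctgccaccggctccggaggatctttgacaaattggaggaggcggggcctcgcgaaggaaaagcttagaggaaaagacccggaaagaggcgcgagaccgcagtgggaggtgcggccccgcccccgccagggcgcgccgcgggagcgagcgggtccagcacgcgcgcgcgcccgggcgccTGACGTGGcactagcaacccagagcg
Sec23a: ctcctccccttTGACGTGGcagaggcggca
Copb1: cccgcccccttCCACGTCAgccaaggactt
Copb2: tcccggaagttCCACGTCAgtgggttggcc
Arf1: gcggcaggcgcTGACGTGGctgccgtcagc
Sec16b: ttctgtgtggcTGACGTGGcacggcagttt
Kdelr3: tggccgccccgCCACGTCAccgcgcggcca
The site of Sec24d begins 26 bases before the start, that of Copb1 28 bases before it (chr7:114254690-114254719, minus strand), and that of Sec23a lies just behind the start (chr12:59011993-59012022, minus strand). The others are at chr9:98563713-98563742 (Copb2, plus), chr11:59228228-59228257 (Arf1, minus) and chr1:157506741-157506770 (Sec16b, plus). Sec24d, Sec23a and Copb1 were higher in the dermal cells, Copb2 (1.18-fold, 95% interval 0.977 to 1.42) and Arf1 did not pass, and Sec16b was expressed in no population, with 78.4 and 54.9 in DF as its highest values. The other raised members of the 11, Copz2, Arf2, Tmed3, Sec31a, Arf4, Copa, Sec62 and Copg1, were not among the 6 with a match. Of 50 genes of the same route listed further on that had a window, 4 hold the motif: Kdelr3, Stx5a, Scfd1 and Gbf1. Of these Kdelr3 alone is printed (chr15:79516367-79516396, plus strand), a gene raised in the dermal cells, so this choice favours a dermal gene. The 4 dermal arrays lay wholly above the 6 others for Kdelr3, which passed the signal filter through dermal cells alone, and for Gbf1. Stx5a and Scfd1 were not among the genes with such a separation, which held for 13.2% of all tested genes. None of 16 genes of the collagen list and none of 4 CREB3 family genes with a window holds it. Whether the motif goes with a dermal signal was not tested. A match is a string of letters and was not tested as a binding site. The ER stress element (ERSE), searched in the same way, was in none of the 45 members and in 0.137% of all genes, but in 7 of 20 listed ER chaperone genes with a window, Hspa5 among them.

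Inside the dermis Sec24d and Sec23a were higher in DF than in DP, by 1.68-fold (adjusted p = 0.0189) and 1.6-fold (adjusted p = 0.0238). These were the 2 members higher in DF (background 11.7%). Both calls were lost when single arrays of DF or DP were left out, which leaves 1 array in that population. With all arrays the log2 difference was 0.752 for Sec24d and 0.681 for Sec23a. For Sec24d it was 0.705 without DF replicate 1, 0.8 without DF replicate 2 and 0.577 without DP replicate 1. For Sec23a it was 0.458 without DF replicate 1, 0.629 without DP replicate 1 and 0.732 without DP replicate 2. With an array left out, the lone remaining array was assumed to vary like the other populations. The pericyte, endothelial and red cell markers of DF given above move with this difference, as does the sum of the Schwann cell markers. Of the 4 Schwann cell markers 1 was higher in DF than in DP (background 11.7%) and 2 were lower (7.77%). The part of these markers in the difference was not tested. Copz2 differed by 1.36-fold between DF and DP without passing (adjusted p = 0.226, 95% interval 0.961 to 1.93-fold).

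**Figure D3:**
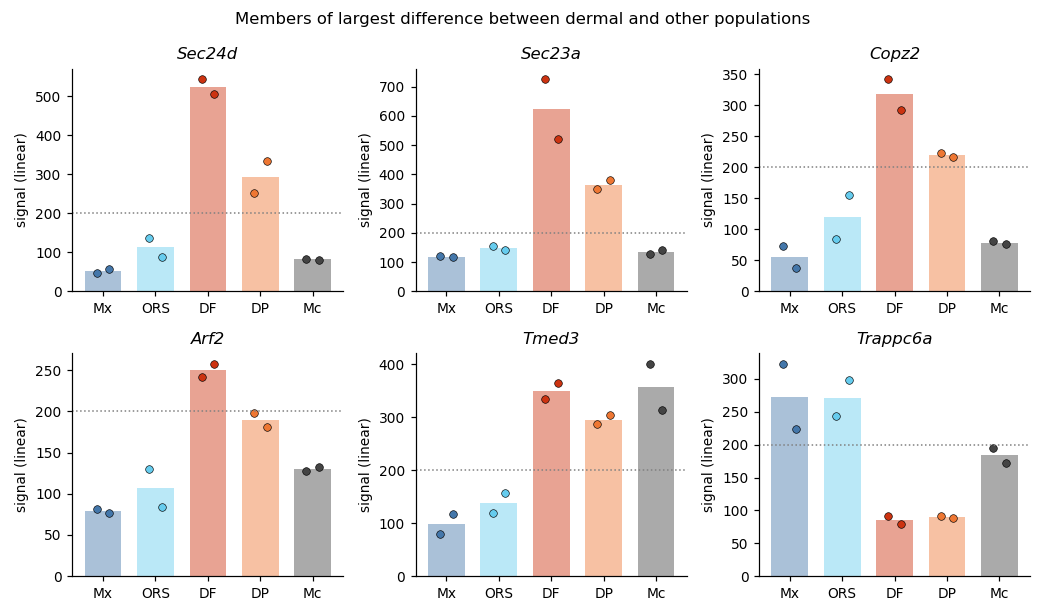
Linear signal on each array (points, 2 per population) and population mean (bars) for the 5 raised members and the 1 lowered member of largest difference between DF and DP and the other populations; the dotted line marks a signal of 200. Sec24d, Sec23a and Copz2 exceed 200 on the 4 dermal arrays only, Tmed3 is high in Mc as well, and Trappc6a is below 100 on the dermal arrays only.

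The other raised members changed less. Arf2, a class I Arf that humans lack, read 242 and 258 in DF, 198 and 182 in DP, and 133 or less elsewhere (1.74-fold, adjusted p = 1.18e-04). Tmed3, a p24 protein of the gamma family, read 334.5 and 365 in DF and 287 and 303 in DP, against 119 and 157 in ORS and 79.5 and 117 in Mx. Mc read 400.1 and 313, so Tmed3 was low in the epithelium rather than high in the dermis alone (1.66-fold, adjusted p = 4.54e-04). Sec31a, of the outer COPII coat, read 525 and 458 in DF and 366 and 438 in DP, with ORS at 324 and 386, so that DP and ORS overlapped (1.49-fold, adjusted p = 0.003).

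Sec62, which helps proteins through the translocon, read from 688.5 to 824 on the dermal arrays and from 444 to 661.5 on the others (1.35-fold, adjusted p = 0.00497). A second probe-set of Sec62 did not pass (1.2-fold, adjusted p = 0.0632). Copb1, the beta subunit of coatomer, was close to constant within each side, with 439 to 472 on the dermal arrays and 309.8 to 344 on the others (1.35-fold, adjusted p = 0.00495).

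For 3 more raised members the call was lost when single arrays were left out. Arf4, a class II Arf, read 1055 and 1171 in DF and 798 and 1350.4 in DP, against 600.2 to 921 elsewhere (1.47-fold, adjusted p = 0.00786), and the call was lost without DP replicate 2 (adjusted p = 0.0542). Its other tested probe-sets gave 1.58-fold and 1.52-fold and passed. Copa, the alpha subunit of coatomer, read 805 to 1147 on the dermal arrays and 490.5 to 918 on the others (1.45-fold, adjusted p = 0.0138), and was lost without DP replicate 2 (0.068). Copg1, a gamma subunit, read 376.5 to 535 against 269 to 355 (1.32-fold, adjusted p = 0.0149), and was lost without DF replicate 1 (0.074) or DP replicate 1 (0.0571), while its second probe-set rose 1.59-fold and passed (adjusted p = 5.38e-04).

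Trappc6a, a TRAPP subunit, was the member most reduced in the dermal cells. It read 90.8 and 78.8 in DF and 92.1 and 89.1 in DP, against 322.5 and 224 in Mx, 243 and 298 in ORS and 195 and 173 in Mc. The dermal arrays did not overlap with the others, and the difference was 2.09-fold (log2 -1.06, SE 0.13, adjusted p = 1.55e-05). Tmed5, another p24 protein of the gamma family, read 439 and 549.5 in Mx and 378 and 305 in ORS. It read 243 and 272 in Mc, 227 and 283 in DF, and 236 and 174 in DP, so Mc and the dermal cells overlapped (1.45-fold lower in the dermal cells, adjusted p = 0.00461).

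The remaining lower members were small in size. Arf3, a class I Arf, read from 283 to 352 on the dermal arrays and from 339.7 to 534 on the others (1.42-fold lower, adjusted p = 0.0108), and was lost without DP replicate 1 (0.055). Copz1, the other zeta subunit, read 251 to 369 against 367.5 to 510.1 (1.32-fold lower, adjusted p = 0.016), and was lost without DF replicate 2 (0.0705) or DP replicate 1 (0.0864).

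Arf6, the Arf of the plasma membrane and endosomes, was graded over all populations, with 2139 and 1748 in Mx, 1746 and 1301 in ORS, 1213 and 1239 in DF, 889 and 933 in DP and 848 and 921 in Mc. Its dermal difference (1.29-fold lower, adjusted p = 0.0277) lost its call when any of 6 arrays was left out. These were ORS replicate 1, DF replicate 1, DF replicate 2, DP replicate 1, DP replicate 2 and Mc replicate 2. The log2 difference was then from -0.294 to -0.379, against -0.363 with all arrays. The other 2 tested probe-sets of Arf6 gave larger differences, of 1.52-fold and 1.84-fold lower, and both passed (adjusted p = 9.93e-04 and 1.09e-04). Of the 17 members called in this comparison, 10 kept their call under all 18 alternatives tried, and none changed sign (the other 7 are Arf4, Copa, Copg1, Arf3, Copz1, Arf6 and Sec11c). All 17 had the same sign within each of the 2 chip lots, but the second lot holds no Mx array, so there DF and DP were set against ORS and Mc only.

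Each dermal population was also compared on its own. In DF 11 members were higher (background 25.5%) and 3 lower (13.8%), and in DP 9 were higher (26.9%) and 6 lower (19.1%). Of the lower members Trappc6a alone was called in both, and Sec11c was lower in DF (log2 -0.98, adjusted p = 3.70e-04) and did not pass in DP (log2 0.32, adjusted p = 0.129). Both comparisons use the same 6 arrays of Mx, ORS and Mc, so they are not separate evidence. Sec24d was 4.44-fold higher in DF and 2.63-fold in DP, Sec23a 3.64-fold and 2.27-fold, and Copz2 2.82-fold and 2.07-fold.

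Several members belong to families whose genes serve the same step, and pairs of these were compared within arrays. Sec23b, whose protein takes the same place in the coat as that of Sec23a, read 444 to 496.5 on the dermal arrays and 426 to 582 on the others. On every array the log2 signal of Sec23a was compared with that of Sec23b, and this difference was -1.66 ± 0.13 (SD, n = 6) on the Mx, ORS and Mc arrays and 0.01 ± 0.39 (SD, n = 4) on the dermal arrays. The shift between these means was 1.67. Such shifts were computed for 11 pairs of tested members of one family, chosen after the values of single genes had been seen. The 6 pairs with Sec23a, Sec24d, Copz2 or Arf2, which passed the signal filter through dermal cells alone, are given as a description. For the other pairs an exact two-sided permutation test over arrays was used, and arrays of a population share their cell type. Its p was adjusted over all 11 pairs. The 6 described pairs stood at the smallest possible p (0.00952) and so lowered the adjusted p of the others. An adjusted p under 0.05 is therefore not taken as a call for these pairs.

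Of the Sec24 genes, Sec24c read 651 to 754.5 on the dermal arrays and 493 to 684 on the others, and its fold was 1.1 with a 95% interval of 0.919 to 1.32. Sec24b read 99.4 and 165.5 in Mx, 293 and 345 in ORS, 277 and 301 in DF, 209.9 and 268 in DP, and 196 and 174 in Mc. Sec24d rose against Sec24c by 1.63 and against Sec24b by 1.45 on the log2 scale, and Sec24b against Sec24c shifted by 0.18 (adjusted p = 0.461, exact permutation test).

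Among the zeta subunits of coatomer, Copz2 rose in the dermal cells as Copz1 fell, and the difference within arrays shifted by 1.68. Arf2 shifted against Arf3 by 1.3 and against Arf1 by 0.73. In these 6 pairs the dermal and other arrays did not overlap. Copg1 against Copg2, which passed the signal filter through Mc alone, shifted by 0.57 (adjusted p = 0.0299, exact permutation test) with overlap. Its shift was 0.447 without DF replicate 1, 0.614 without DF replicate 2 and 0.552 without DP replicate 2. The adjusted p of the permutation test was then 0.0748, 0.0748 and 0.0655. Arf1 against Arf3 shifted by 0.57 (adjusted p = 0.0393, exact permutation test). Its adjusted p rose to between 0.0582 and 0.0982 without any of 7 arrays, with shifts from 0.493 to 0.578. These were Mx replicate 2, ORS replicate 2, DF replicate 1, DF replicate 2, DP replicate 1 and both Mc arrays. With an array left out fewer arrangements are possible, so the smallest possible p is larger. A rise in p alone therefore does not show that a shift depends on that array. Arf4 against Arf5 (0.86, adjusted p = 0.105) and Sec11c against Sec11a (-0.18, adjusted p = 0.838) did not pass the exact permutation test.

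**Figure D4:**
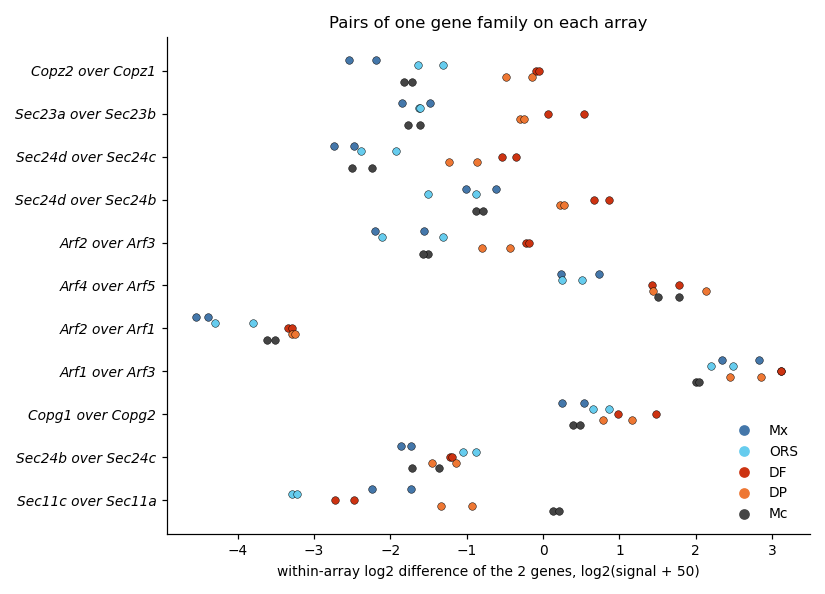
Within-array difference of log2(signal + 50) between the 2 genes of each of 11 pairs of one family, with a point for each array coloured by population. For Copz2 over Copz1, Sec23a over Sec23b, Sec24d over both other Sec24 genes, and Arf2 over Arf1 and Arf3 the DF and DP points lie to the right of all others, and for Sec11c over Sec11a the Mc points do.

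Melanocytes were compared with the epithelial populations. Against the mean of Mx and ORS, 7 members were higher in Mc (background 21.9%) and 4 lower (29.4%). No COPII gene of 9 and no COPI gene of 8 was among them. Of 6 p24 genes 3 were higher and 1 lower, and of 7 TRAPP genes 3 were higher and 1 lower. Here too a difference between roles was not tested. Of the called members Sec11c, Tmed3, Trappc6a, Tmed5 and Arf6 were called in the dermal comparison as well. Both Mc arrays lay above all 8 others for 8 members and for 11.8% of all tested genes.

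Sec11c, a catalytic subunit of signal peptidase, had the widest range of all members, 12.7-fold. It read 1383 and 1583 in Mc, 477 and 382 in DP, 226 and 287 in Mx, 169 and 122 in DF, and 72.4 and 68.0 in ORS. No population overlapped with the next in this order. It was 7.99-fold higher in Mc than in the epithelial mean (log2 3.0, SE 0.17, adjusted p = 5.35e-08), 2.54-fold higher in Mx than in ORS (adjusted p = 3.46e-04) and 2.46-fold lower in DF than in DP (adjusted p = 4.74e-04). It was the one member higher in Mx than in ORS (background 4.25%) and the one lower in DF than in DP (background 7.77%). Melanocyte markers summed highest in Mc, next in DP and then in DF, and their part in the Sec11c signal of DP was not tested. Because DF and DP lay on opposite sides, the mean of both differed little from the other populations (log2 -0.33, adjusted p = 0.0466), and that call was lost under 10 of 18 alternatives, among them 7 single arrays left out. Those arrays were Mx replicate 2, ORS replicate 1, ORS replicate 2, DF replicate 2, DP replicate 2, Mc replicate 1 and Mc replicate 2, with adjusted p from 0.0599 to 0.187. Sec11a, the other catalytic subunit, read from 953 to 1365 on the 10 arrays and spanned 1.3-fold.

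Tmed10, a p24 protein of the delta family, read 929.7 and 928 in Mc, 709 and 679 in DP, 582 and 655 in DF, 569 and 680.1 in ORS, and 266 and 343 in Mx. It was 2.01-fold higher in Mc than in the epithelial mean (adjusted p = 2.00e-04), and 1.91-fold lower in Mx than in ORS (adjusted p = 0.00307). These folds rest on the 1 probe-set that names Tmed10 alone. Probe-sets shared with Tmed10-ps, which were not tested, differed less. The brightest of them read 640 and 826 in Mx, 958 and 912 in ORS, and 1207 and 1169 in Mc. On the other shared probe-sets Mx and ORS overlapped. Tmed4 read 425 and 388 in Mc against 199 to 326 elsewhere (1.77-fold, adjusted p = 6.60e-04). Tmed3 was 2.43-fold higher in Mc than in the epithelium (adjusted p = 5.34e-05), with DF and Mc overlapping.

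Of the TRAPP subunits, Trappc2, whose loss in humans gives a skeletal dysplasia, read 367 and 409 in Mc, 241 and 299 in DP, 239 and 280.2 in DF, 182 and 209 in ORS and 96.4 and 157 in Mx (2.12-fold over the epithelium, adjusted p = 2.80e-04). Trappc2l, its near relative, read 673 and 596 in Mc against 295 to 488 elsewhere (1.78-fold, adjusted p = 0.00103). Trappc1 read 577 and 579 in Mc against 344 to 486 elsewhere (1.33-fold, adjusted p = 0.032). The Trappc1 call was lost without ORS replicate 1 (0.0753), Mc replicate 1 (0.132) or Mc replicate 2 (0.147).

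**Figure D5:**
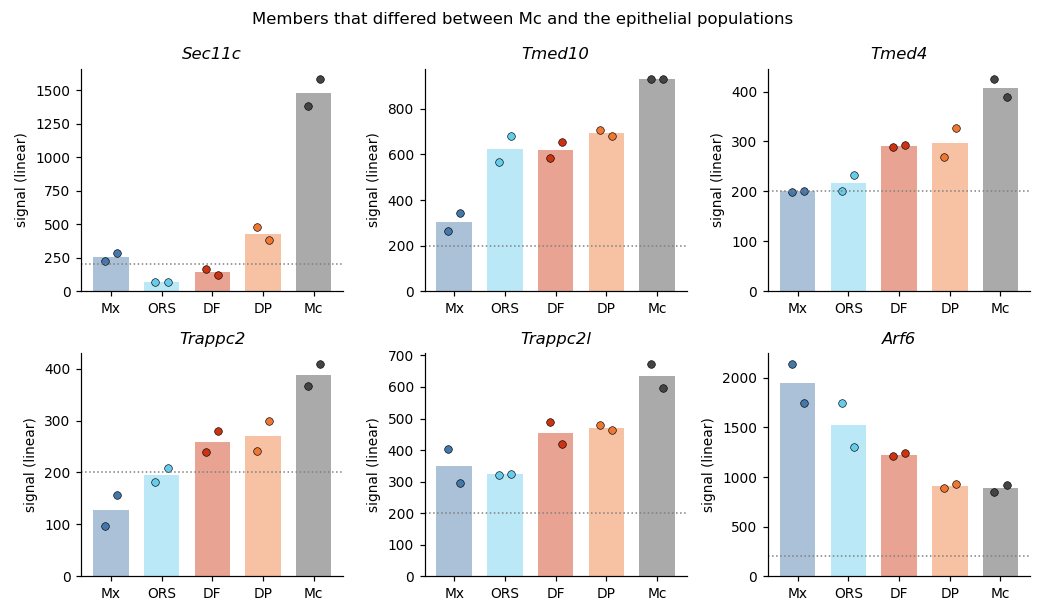
Linear signal on each array (points, 2 per population) and population mean (bars) for 6 members that differed between Mc and the mean of Mx and ORS; the dotted line marks a signal of 200. Both Mc points lie above all others for Sec11c, Tmed10, Tmed4, Trappc2 and Trappc2l, and Arf6 falls from Mx to Mc.

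Lower in Mc than in the epithelium were Arf6 (1.88-fold, adjusted p = 6.26e-04) and Arf5, a class II Arf, which read 264 and 232 in Mc, 506 and 529.8 in ORS and 513 and 342 in Mx (1.73-fold, adjusted p = 0.00224). Tmed5 was 1.5-fold lower (adjusted p = 0.015) and lost its call without Mc replicate 1 (0.113) or Mc replicate 2 (0.0567). Trappc6a was 1.37-fold lower (adjusted p = 0.0417), and lost its call without any of 8 arrays (Mx replicate 1, ORS replicate 2 and both arrays of DF, DP and Mc), at adjusted p from 0.0538 to 0.233.

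The epithelial populations differed in few members. Sec24b (2.05-fold, adjusted p = 0.00359), Tmed10 and Sec24d were lower in Mx than in ORS (background 15.5%). The call of Sec24d (1.57-fold, adjusted p = 0.0395) was lost without Mx replicate 1 (0.154), ORS replicate 1 (0.265), and either array of DF or Mc, the last at adjusted p from 0.0544 to 0.059. It was also lost with array weights (0.146), quantile normalization (0.139), a chip lot block (0.0602) or no signal filter (0.0642). Without Mx replicate 2, 10 members were called between Mx and ORS in place of 4. Sec22b, a SNARE of ER to Golgi vesicles, read from 142 to 303 on the 10 arrays, and did not pass in the dermal comparison (adjusted p = 0.268), although its second probe-set did (1.25-fold, adjusted p = 0.0396).

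Among genes of the same route that the symbol rule did not reach, 35 of a list of 56 were tested, and 11 were higher (background 31.0%) and 1 lower (21.3%) in the dermal cells, with a median log2 difference of 0.24 (0.07 over all genes). Kdelr3, a receptor that returns ER proteins by COPI vesicles, read 369.8 and 398 in DF and 283 and 250.2 in DP and no more than 39.1 elsewhere (4.79-fold, adjusted p = 4.89e-09), and it passed the filter through these populations alone. Its relative Kdelr2 read 1358 to 1936.5 on the dermal arrays and 532 to 1097 on the others (2.05-fold, adjusted p = 1.78e-05). Sar1a, the GTPase that starts the COPII coat, read 1589.6 to 1819 against 630.0 to 1301 (1.92-fold, adjusted p = 5.16e-05). Lman1, a cargo receptor of COPII, rose 1.75-fold (adjusted p = 1.94e-04), with ORS replicate 2, at 525, inside the dermal range of 480.3 to 627. Mia3, the receptor that loads collagen into COPII carriers, named after its values were seen, read 379 to 485 against 146 to 363 (1.55-fold, adjusted p = 0.00211).

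Other steps of the secretory route were counted against the same background of 31.0% higher and 21.3% lower, and differences between lists were not tested. Of 20 tested genes of ER entry, 3 were higher and 1 lower, with Ssr3, of the complex beside the translocon, the largest (1.78-fold, adjusted p = 9.68e-05). Ostc (1.25-fold higher, adjusted p = 0.0481), Ddost (1.23-fold higher, adjusted p = 0.0329) and Srp14 (1.32-fold lower, adjusted p = 0.0318) each lost their call under 8 or more of the 18 alternatives. Of 19 tested ER chaperones and genes of the unfolded protein response, 6 were higher and none lower. Xbp1, a transcription factor of that response, rose 1.7-fold (adjusted p = 2.80e-04) and Hspa5, the main chaperone of the ER, 1.51-fold (adjusted p = 0.00174). Eif2ak3, a sensor kinase, rose 1.49-fold (adjusted p = 0.00205). Herpud1, which passed the filter through DF or DP alone, rose 1.61-fold (adjusted p = 0.0106), and was lost without DF replicate 1 (0.0542) or after quantile normalization (0.052).

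All 19 tested genes of collagen cargo and collagen folding were higher in the dermal cells, with a median log2 difference of 2.32 (background 31.0% higher). Of the 19, 7 (Col1a1, Col6a1, Col6a2, Col6a3, Lox, P3h1 and P3h3) passed the signal filter through DF or DP alone, so for them a difference was to be found. Col1a2 read 12179 and 11643 in DF and 8060.5 and 7124 in DP, against 319 to 1131 elsewhere (13.9-fold, adjusted p = 5.00e-10). Col3a1 was 8.78-fold higher (adjusted p = 8.94e-09), Col1a1 6.38-fold (adjusted p = 6.18e-06), and Col6a1, Col6a3 and Col6a2 from 28.3-fold to 24.6-fold. Col3a1 is also among the markers by which DF was recognized.

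The CREB3 family holds transcription factors that are kept in the ER membrane and cut free in the Golgi, and Creb3l2 is known from mouse and fish as an activator of Sec23a in cartilage. All 3 tested genes of the family were higher in the dermal cells, but Creb3l1 and Creb3l2 passed the signal filter through DF or DP alone. Creb3l1 read 656 and 426 in DF and 150.4 and 183 in DP, against 41.1 to 77.2 elsewhere (3.11-fold, adjusted p = 9.17e-07). Creb3l2 read 514 and 387 in DF and 340.1 and 315 in DP, against 36.5 to 266 elsewhere (2.38-fold, adjusted p = 1.96e-05). Creb3 rose 1.43-fold (adjusted p = 0.00342). On the dermal arrays these 3 genes, like Sec24d, Sec23a, Copz2, Kdelr3, Sar1a and Mia3, lay above every other array, as did 13.2% of all tested genes. Creb3l1, Creb3l2, Sec24d, Sec23a, Copz2 and Kdelr3 passed the signal filter through DF or DP alone, so for them such a separation was to be found. Other genes given above, such as Copb1, Copg1, Sec62 and Kdelr2, separated as well. Control of any of these genes by CREB3 factors was not tested.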

How the data were processed

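Expression was measured on 10 Affymetrix MOE430A arrays, 2 for each of 5 sorted populations. The authors hybridized RNA after 1 round of amplification, and the deposited intensity of each probe-set is the MAS5 signal on a linear scale, which they scaled array by array. Present calls were not used here. The chip lot was read from the experiment files deposited for each array. Of 22690 probe-sets 64 controls were left out, 20380 named 1 gene, 691 several and 1555 none, and a gene was read by its probe-set of highest mean log2 signal. The 52 members had 93 probe-sets, 21 members having several, and all 52 symbols stood in RefSeq. The test was that of limma 3.58.1 under R 4.3.3, applied to log2(signal + 50) of the 8054 probe-sets for which both arrays of some population gave 200 or more. All arrays entered a single model of population means without a block. P-values were adjusted by Benjamini-Hochberg over all probe-sets of a comparison, with 0.05 as the threshold. The fit had 5 residual and 7.46 prior degrees of freedom and a median SD of 0.21. Background shares are over the 5253 tested genes. With 2 arrays in a population, p-values rest on the spread pooled over populations and may measure technical spread, and the number of arrays limits the precision. The fit was tested on simulated data with known folds. Members and lists were chosen with earlier results of these data known.

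Genes given with single values are the 14 of largest dermal difference past the threshold, up to 4 more for each other comparison, the 6 members of smallest range among those at 200 or more on all arrays and 1 fixed member of each role, and from each other list up to 4 of largest difference with Col1a1, Col1a2 and Col3a1. Other pseudocounts, signal bounds, a quantile normalization, blocks for replicate number and chip lot, array weights and each array left out in turn were the alternatives. The pairs of one gene family were added after the data were seen, and those not set by the signal filter were tested by exact permutation with scipy 1.17.1. Tables were read with pandas 2.3.3 and numpy 2.4.6 in Python 3.11.15, and plots drawn with matplotlib 3.10.9.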

Additional observations from a re-analysis of the deposited data

How the results depend on the processing

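No called difference of a member changed its sign under any of the 18 alternatives. The number of called members kept within 1.5 times its value for all differences (21), for DF and DP (17) and for Mc over Mx and ORS (11) under all 18 alternatives. Leaving out single arrays moved the other counts. For DF over Mx, ORS and Mc (14 members) it gave 7 to 15, with 7 without DF replicate 1 and 9 without DF replicate 2. For DP over the same populations (15) it gave 6 to 15, with 8 without DP replicate 1 and 6 without DP replicate 2. For DF over DP (3) it gave 1 to 3, the 1 without DF replicate 1 or DP replicate 1, and for Mx over ORS (4) it gave 3 to 10, the 10 without Mx replicate 2. Such fits leave 1 array in a population. The share of all genes called moved too, to 25.5% for DF without DF replicate 1, 27.5% for DP without DP replicate 2, 11.7% for DF over DP without DP replicate 1 and 32.3% for Mx over ORS without Mx replicate 2. With a fold limit of 1.5 in place of 2, 13 of the 28 members were even (31.5% of all genes). With no signal filter all 52 members entered, and 22 were called for DF and DP, where 38.2% of genes were. With the replicate block the counts were 23 for any difference, 19 for DF and DP, 15 for DF, 16 for DP, 3 for DF over DP, 4 for Mx over ORS and 11 for Mc, none moved by over 1.5 times. Same-numbered arrays did not deviate together in every pair (r of deviations from -0.046 to 0.34), so the numbers were not taken as pairs. Signals near 200 and below leave 9 members without a test.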
